A study of Mus musculus with 6 samples.

Results

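FoxO transcription factors and genes of their survival and insulin-signalling programme were examined in 3 lines of endothelial cells that had been grown out of mouse embryonic stem cells. The 9 genes were chosen by symbol: the factors Foxo1, Foxo3 and Foxo4, the targets Bcl2l11, Sesn1 and Cited2, and Insr, Irs2 and Pik3ip1 of the insulin receptor pathway. All 9 were measured, out of 19936 genes with a probe set of a single symbol. Insr alone had 2 such probe sets, and the brighter was used. RNA was hybridised to Affymetrix Mouse Gene 1.0 ST arrays, 2 for each line and 6 in all. The VE+N line is labelled as expressing both VE-cadherin and N-cadherin, the VE line VE-cadherin and the N line N-cadherin. All lines were seeded at 50000 cells per square centimetre, cultured for 72 h into long confluence and starved of serum for 18 to 20 h before RNA was taken, so every array reports serum-starved, confluent cells. Each cadherin state is 1 cell line, so a difference between lines cannot be told apart from other differences between those cell populations.

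FoxO factors are forkhead transcription factors held in check by insulin and growth factors. Receptor signals pass through PI3 kinase to the kinase Akt, which phosphorylates FoxO proteins and keeps them out of the nucleus. When Akt activity is low, nuclear FoxO proteins switch on genes for cell death, arrest and stress resistance, and genes that restore insulin sensitivity. In endothelial cells FoxO1 is linked to quiescence and vessel remodelling, and VE-cadherin at cell contacts has been tied to Akt activity and to relief of FoxO1 repression of the claudin gene Cldn5. Arrays report RNA and not the phosphorylation or location of FoxO proteins.

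The labelled cell type was checked against its markers. All 10 endothelial markers (Pecam1, Kdr, Tek, Tie1, Emcn, Erg, Esam, Eng, Cd34 and Flt1) lay above the median gene on every array, and 0 of 8 pluripotency markers did so. Of 8 mural cell markers, 0 lay above the median gene on the VE+N arrays, 3 on each VE array and 3 or 4 on the N arrays. Their mean log2 signal was 4.29 to 4.36 in VE+N, 5.30 to 5.49 in VE and 5.59 to 5.68 in N. In VE+N against N 5 of the 8 fell at adjusted p below 0.05 in limma, led by Pdgfrb, Acta2 and Notch3 (all genes: 8.91% lower). In VE against N 2 fell (all genes: 6.99% lower) and in VE+N against VE 3 (5.84%), and 0 rose in any comparison. Of 6 blood cell markers only Cd68 lay above the median gene, at 8.62 and 8.74 in VE+N, 9.80 and 10.19 in VE and 11.55 and 11.56 in N. Of the 10 endothelial markers 4 rose and 0 fell in VE+N against N, with a median of 0.19 (all genes: 10.2% higher, 8.91% lower). In VE+N against VE 4 rose and 0 fell, with a median of 0.36 (all genes: 4.29% higher, 5.84% lower). For VE against N 1 rose and 2 fell, with a median of −0.17 (all genes: 8.46% higher, 6.99% lower). The endothelial and mural markers and Cd68 thus moved with the lines, and their part in the results below was not tested. Cdh2, the N-cadherin gene, had log2 signals of 6.69 and 6.70 in VE+N, 5.80 and 5.93 in VE and 7.66 and 7.67 in N. Cdh5, the VE-cadherin gene, had 7.05 and 7.16 in VE+N, 7.05 and 6.83 in VE and 7.26 and 7.30 in N, and no difference in it passed (adjusted p 0.0917 to 0.462). Its probe set therefore does not show the VE-cadherin labels, and where its probes lie relative to any altered part of the gene is not given in the sources used here. The SD of the difference between arrays over all genes was 0.185 to 0.244 within a line and 0.399 to 0.559 between lines.

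Among the 9 genes, Bcl2l11 and Sesn1 differed most between lines, and no difference in a FoxO factor passed the test (adjusted p below 0.05 in limma). Bcl2l11 lies on chromosome 2 at 128126038 to 128162547 and Sesn1 on chromosome 10 at 41810574 to 41908436 (GRCm38.p6). The promoter windows of these 2 targets are shown because each holds a match to the FoxO recognition core GTAAACA, searched on both strands as GTAAACA or TGTTTAC. They are RefSeq windows on GRCm38.p6, running 250 bases before to 50 after a gene start, on the plus strand, with the match in capitals. The Bcl2l11 window is chr2:128125788-128126087, and its match begins at position −227 relative to the start. The Sesn1 window is chr10:41810324-41810623, and its match begins at position 22.
Bcl2l11: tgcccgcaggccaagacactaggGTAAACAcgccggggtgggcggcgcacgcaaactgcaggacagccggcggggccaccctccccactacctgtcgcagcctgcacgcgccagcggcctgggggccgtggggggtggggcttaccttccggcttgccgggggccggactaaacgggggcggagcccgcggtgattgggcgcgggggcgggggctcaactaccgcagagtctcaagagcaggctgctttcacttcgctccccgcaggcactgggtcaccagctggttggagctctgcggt
Sesn1: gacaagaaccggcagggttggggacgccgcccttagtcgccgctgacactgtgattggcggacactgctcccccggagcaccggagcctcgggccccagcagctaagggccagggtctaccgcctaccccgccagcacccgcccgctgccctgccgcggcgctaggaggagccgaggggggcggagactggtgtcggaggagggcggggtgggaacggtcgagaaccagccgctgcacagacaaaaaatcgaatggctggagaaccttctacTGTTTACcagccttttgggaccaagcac
Windows were given for 7 of the 9 genes, and these 2 held a match, in 2 of 9 windows. Each has a second annotated start whose window held none. Among the 32851 windows of all genes 3.65% held a match, and in the 32 other FoxO-activated genes with a window 4 of 40 windows did, those of Bbc3, Mxi1, Trim63 and Txnip. A match is a description of the letters and not a binding site.

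**Figure D1:**
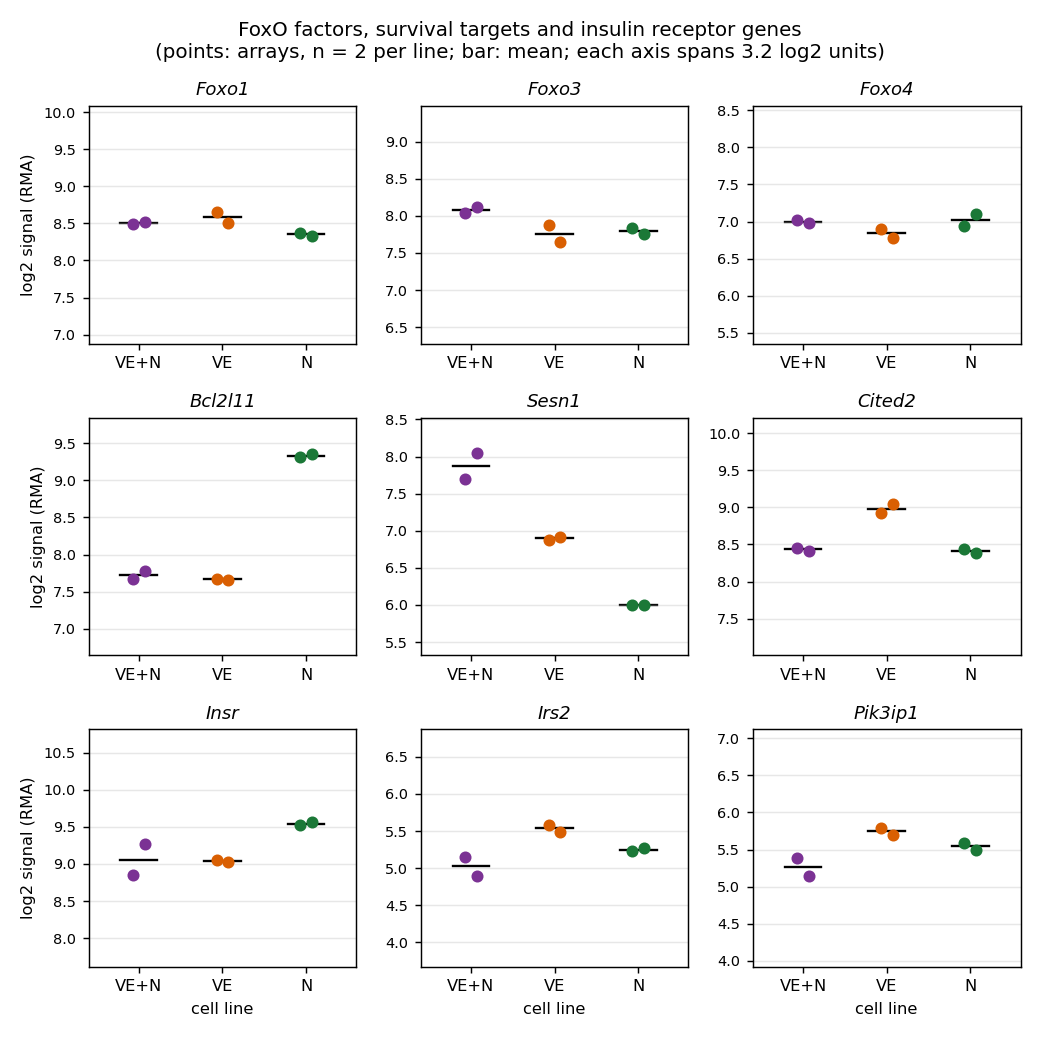
Log2 signal of each gene on each array (points, 2 per line) with the line mean (bar), for VE+N, VE and N from left to right. Every panel spans the same width in log2 units around the gene's own mean. Bcl2l11 was near 9.33 in N and between 7.66 and 7.78 in the other lines, Sesn1 stepped down from VE+N through VE to N, and the FoxO factors differed little.

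Counted over the 9 genes, 1 rose and 2 fell in VE+N against N, where 19.1% of all 19936 genes were called. In VE against N 2 rose and 2 fell, where 15.4% of all genes were called, and in VE+N against VE 1 rose and 3 fell, where 10.1% were called. Past 2-fold as well were Bcl2l11 and Sesn1 in VE+N against N (4.6% of all genes), Bcl2l11 in VE against N (3.81%) and 0 of the 9 in VE+N against VE (2.52%). The comparisons share lines, so these counts are not independent of each other. The median difference of the 9 genes was −0.02 in VE+N against N, 0.20 in VE against N and 0.01 in VE+N against VE, beside −0.0044, −0.02 and 0.03 for all genes. The count of 4 in VE against N was 2 without N replicate 2 or VE replicate 2. In VE+N against VE the count of 4 was 2 without either N array or VE replicate 1, and 1 without VE replicate 2 or VE+N replicate 2. In VE+N against N it was 2 without N replicate 1, N replicate 2, either VE array or VE+N replicate 1, where the Insr call was lost. Leaving out either array of the line not compared gave the same fit as using only the arrays of the lines compared. The counts without either N array in VE+N against VE, or without either VE array in VE+N against N, are thus 1 result each. Centring each array on its median moved the all-gene median of VE against N to −0.13, a shift of over 0.1. The directions of the calls in the 9 genes held under this centring, while the Pik3ip1 call was lost (adjusted p = 0.0569).

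The FoxO factor genes themselves showed only small differences. Foxo1, which directs metabolic and vascular programmes, had log2 signals of 8.49 and 8.52 in VE+N, 8.66 and 8.51 in VE and 8.38 and 8.32 in N. The VE+N and VE arrays lay above the N arrays and overlapped each other. VE+N exceeded N by 0.15 ± 0.102 (SE), with an adjusted p of 0.385, and VE exceeded N by 0.23 ± 0.102, with an adjusted p of 0.187. Neither passed, and the 95% interval for VE against N ran from −0.0010 to 0.47. VE+N differed from VE by −0.08 (adjusted p = 0.706).

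Foxo3, which drives death and stress-resistance genes in many cell types, had log2 signals of 8.04 and 8.11 in VE+N, 7.87 and 7.64 in VE and 7.84 and 7.76 in N. The VE+N arrays were the highest, without overlap with the others, while VE and N overlapped at a difference of −0.04 (adjusted p = 0.875). VE+N exceeded VE by 0.32 ± 0.113 (adjusted p = 0.136) and N by 0.28 ± 0.113 (adjusted p = 0.144). Foxo4, a smaller family member encoded on the X chromosome, had 7.02 and 6.97 in VE+N, 6.90 and 6.77 in VE and 6.94 and 7.11 in N, with VE lowest and N overlapping VE+N. Its differences of −0.02, −0.18 and 0.16 for VE+N against N, VE against N and VE+N against VE did not pass (adjusted p 0.345 to 0.922). In limma 0 of the 3 factors passed in any comparison. At an unadjusted limma p below 0.05 only Foxo3 did, in VE+N against N and in VE+N against VE. The analysis of variance with Benjamini-Hochberg adjustment also called 0. Its unadjusted p was 0.0371 for Foxo1 in VE against N. For Foxo3 it was 0.0775 in VE+N against N and 0.056 in VE+N against VE. Of the 17 alternatives with an adjusted test, 1 called Foxo3 in VE+N against VE (adjusted p = 0.0485 without the dimmest 50% of genes), within a range of 0.0485 to 0.488.

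Of the death and stress targets, Bcl2l11 encodes Bim, a protein that binds pro-survival BCL2 proteins and so triggers mitochondrial apoptosis. Its log2 signal was 7.68 and 7.78 in VE+N, 7.67 and 7.66 in VE and 9.31 and 9.35 in N. The N arrays stood far above all others, and VE+N and VE lay close together without overlapping. Bcl2l11 fell by 1.60 ± 0.0976 (SE) log2 units in VE+N against N (adjusted p = 1.89e-05), which is 3.03-fold lower, and it fell by 1.66 ± 0.0976 in VE against N (adjusted p = 2.46e-05), or 3.17-fold lower. VE+N and VE differed by 0.06 (adjusted p = 0.772; 95% interval −0.16 to 0.29). Both calls against N passed under each of 17 alternatives, with adjusted p up to 0.00843 and 0.0119. In bulk RNA such as this, fewer cells with the transcript and less of it per cell cannot be told apart.

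Sesn1 encodes sestrin 1, a stress protein that restrains the growth kinase mTOR and is a target of p53 as well as of FoxO factors. It had log2 signals of 7.70 and 8.05 in VE+N, 6.88 and 6.92 in VE and 5.99 and 6.00 in N. The lines formed 3 separate steps, with the VE+N arrays the most spread. Sesn1 rose by 1.88 ± 0.129 in VE+N against N (3.67-fold, adjusted p = 3.64e-05), by 0.91 in VE against N (1.87-fold, adjusted p = 0.00232) and by 0.97 in VE+N against VE (1.96-fold, adjusted p = 0.00249). Of the alternatives with an adjusted p, only the unmoderated analysis of variance ended calls, those of VE against N (adjusted p = 0.0787) and VE+N against VE (adjusted p = 0.097).

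Cited2 encodes a transcriptional co-regulator that binds CBP and p300 and limits hypoxia signalling. Its log2 signal was 8.46 and 8.41 in VE+N, 8.92 and 9.04 in VE and 8.43 and 8.38 in N. VE stood apart, while VE+N and N overlapped. Cited2 rose by 0.57 ± 0.0999 in VE against N (1.48-fold, adjusted p = 0.00648) and fell by 0.55 in VE+N against VE (1.46-fold lower, adjusted p = 0.0113). VE+N and N differed by 0.02 (adjusted p = 0.915; 95% interval −0.21 to 0.25). The call against N was lost without N replicate 2 (adjusted p = 0.0586) or VE replicate 2 (adjusted p = 0.0604), and that of VE+N against VE without VE replicate 2 (adjusted p = 0.0966) or VE+N replicate 2 (adjusted p = 0.0539), within a range of 0.000827 to 0.0966.

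The insulin receptor gene Insr, at the head of the pathway that restrains FoxO factors, had log2 signals of 8.84 and 9.26 in VE+N, 9.06 and 9.02 in VE and 9.52 and 9.57 in N. Both N arrays were above all others, and the VE+N arrays enclosed the VE arrays. Insr fell by 0.49 ± 0.141 in VE+N against N (adjusted p = 0.0464) and by 0.50 ± 0.141 in VE against N (adjusted p = 0.0498), each 1.40- to 1.42-fold lower. These calls lay at the threshold: 9 and 11 of 17 alternatives kept them, and leaving out either N array ended both (differences −0.53 to −0.47). Leaving out either VE array ended that of VE against N (differences −0.52 and −0.49). With only the 4 arrays of the lines compared, the call ended in VE+N against N (adjusted p = 0.0882) and held in VE against N (adjusted p = 0.0119). Leaving out an array of the line not compared gave this same fit, so the 17 hold it more than once. The second Insr probe set differed by −0.46 ± 0.124 and −0.44 ± 0.124 in the same comparisons, which did not pass when all probe sets were tested together (adjusted p = 0.0923 and 0.128). Without VE+N replicate 1 the VE+N difference was −0.28 (adjusted p = 0.118).

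Irs2 encodes the insulin receptor substrate that couples the receptor to PI3 kinase and is a FoxO target in liver. It had log2 signals of 5.15 and 4.90 in VE+N, 5.58 and 5.49 in VE and 5.23 and 5.27 in N. The lines did not overlap, with VE highest and VE+N lowest. Only the extremes passed: Irs2 fell by 0.51 ± 0.115 in VE+N against VE (1.43-fold lower, adjusted p = 0.0276). VE+N differed from N by −0.22 (adjusted p = 0.244) and VE from N by 0.29 (adjusted p = 0.147), and neither passed.

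Pik3ip1 encodes a membrane protein that binds and inhibits PI3 kinase. Its log2 signal was 5.39 and 5.15 in VE+N, 5.79 and 5.70 in VE and 5.59 and 5.50 in N, in the same order of lines as Irs2. Pik3ip1 fell by 0.48 ± 0.115 in VE+N against VE (1.39-fold lower, adjusted p = 0.0383), and its other differences of −0.28 and 0.20 against N did not pass (adjusted p = 0.152 and 0.335). Irs2 and Pik3ip1 both lay near the median gene of the arrays, with 47.2% and 49.8% of genes dimmer. Of 16 alternatives with an adjusted test, 8 kept the Irs2 call and 5 the Pik3ip1 call. Repeated quantile normalization and array weights ended that of Pik3ip1 (adjusted p = 0.0653 and 0.057) and kept that of Irs2 (adjusted p = 0.0424 and 0.0392). Both calls were lost without either VE array and without VE+N replicate 2. Both were also lost with only the 4 arrays of the lines compared, the same fit as without either N array. There the adjusted p was 0.0502 for Irs2 and 0.0653 for Pik3ip1. Leaving out single arrays gave differences of −0.64 to −0.39 for Irs2 and −0.59 to −0.36 for Pik3ip1.

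**Figure D2:**
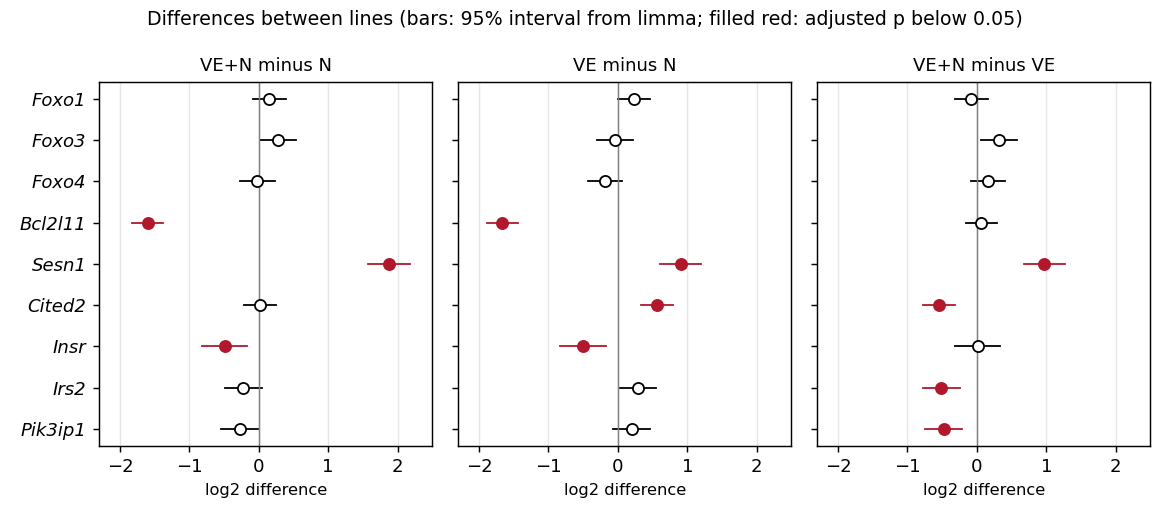
Log2 differences of the 9 genes (points) with 95% intervals (bars) for VE+N minus N, VE minus N and VE+N minus VE. Filled red points passed adjusted p 0.05 in limma, and the intervals of Bcl2l11 against N and of all 3 Sesn1 comparisons lie farthest from 0.

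Other genes described as activated by FoxO factors went both ways. Of 36 listed, 35 were measured. Of these 8 rose and 6 fell in VE+N against N, with a median of 0.04 (all genes: 10.2% higher, 8.91% lower, median −0.0044). For VE against N 7 rose and 2 fell, with a median of 0.04 (all genes: 8.46% higher, 6.99% lower, median −0.02). For VE+N against VE 5 rose and 7 fell, with a median of 0.02 (all genes: 4.29% higher, 5.84% lower, median 0.03). The list was drawn up with earlier results of these data known, so its counts are a description. Without VE replicate 1 the rises in VE against N numbered 2, and without N replicate 1 those in VE+N against N numbered 4. The rises in VE+N against VE numbered 0 when VE replicate 2 was left out and 3 when VE+N replicate 2 was.

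The sestrin family divided. Sesn2, the sestrin best known from amino acid and energy stress, had log2 signals of 8.23 and 7.98 in VE+N, 7.59 and 7.36 in VE and 6.61 and 6.63 in N, in the same order as Sesn1. It rose by 1.49 ± 0.127 in VE+N against N (adjusted p = 0.000119), by 0.86 in VE against N (adjusted p = 0.00275) and by 0.63 in VE+N against VE (adjusted p = 0.0175). Sesn3, the sestrin induced by FoxO factors without p53, ran the other way, at 6.79 and 6.93 in VE+N, 7.33 and 7.59 in VE and 8.44 and 8.53 in N. It fell by 1.62 ± 0.121 in VE+N against N (adjusted p = 5.81e-05), by 1.02 in VE against N (adjusted p = 0.000893) and by 0.60 in VE+N against VE (adjusted p = 0.0174). The directions against N held under median centring and under repeated quantile normalization. The called differences of Sesn1, Sesn2 and Sesn3 against N thus had different signs within 1 family.

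**Figure D3:**
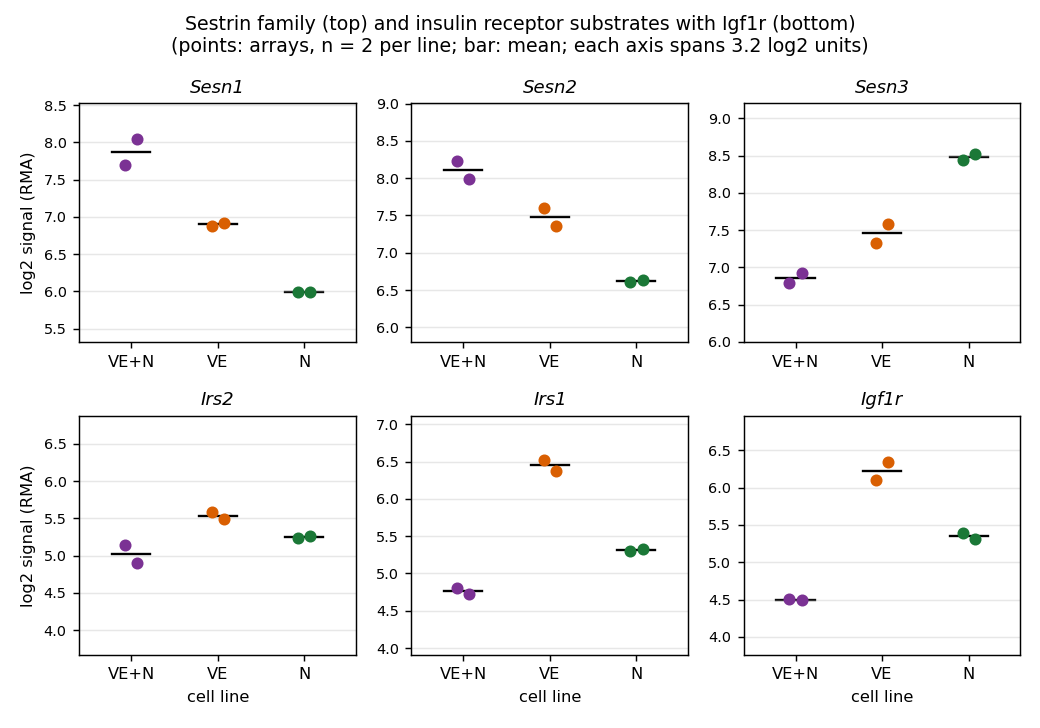
Log2 signal on each array (points) and line mean (bar) for Sesn1, Sesn2 and Sesn3 in the upper row and Irs2, Irs1 and Igf1r in the lower row, with VE+N, VE and N from left to right. Sesn1 and Sesn2 were highest in VE+N and Sesn3 was highest in N, whereas Irs2, Irs1 and Igf1r were highest in VE and lowest in VE+N.

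Angpt2, the angiopoietin that FoxO1 induces in endothelial cells and that destabilises vessels, was lower wherever VE-cadherin was on the label. It had log2 signals of 4.34 and 4.07 in VE+N, 4.57 and 4.46 in VE and 6.08 and 5.94 in N. It fell by 1.81 ± 0.124 in VE+N against N (adjusted p = 3.7e-05) and by 1.50 ± 0.124 in VE against N (adjusted p = 0.000145), the same direction as Bcl2l11. The VE+N and VE signals of Angpt2 lay within the range of the pluripotency markers on the same arrays (up to 4.80), so they are not shown to be above background and the size of the falls is uncertain. Txnip, a redox regulator that limits glucose uptake, rose instead, by 0.96 ± 0.102 in VE+N against N, with 12.31 and 12.41 in VE+N, 11.93 and 11.84 in VE and 11.36 and 11.45 in N. Sod2, the mitochondrial superoxide dismutase, rose by 0.64 in VE against N and by 0.69 in VE+N against N (adjusted p = 0.00309). For Sod2 VE+N differed from VE by 0.06 (adjusted p = 0.828). Tsc22d3, a glucocorticoid- and FoxO-responsive leucine zipper protein, rose by 1.02 in VE+N against N and 0.80 in VE+N against VE. The repressor gene Bcl6 took the pattern of Cited2, up by 0.63 in VE against N and down by 0.74 in VE+N against VE. The rises of Sod2 and Bcl6 in VE against N were lost without VE replicate 1. The mitophagy gene Bnip3, the receptor kinase antagonist Spry2 and the DNA damage gene Gadd45a fell by 0.64, 0.84 and 0.65 in VE+N against N. In VE+N against VE they fell by 1.00, 0.69 and 0.64. The calls of Gadd45a without VE replicate 1 and of Tsc22d3 without VE replicate 2 were lost in that comparison.

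Genes that FoxO factors are described as repressing were also mixed. The tight junction gene Cldn5 had log2 signals of 11.55 and 11.81 in VE+N, 9.26 and 9.26 in VE and 6.14 and 6.34 in N, and rose by 5.44 ± 0.125 in VE+N against N (adjusted p = 2.09e-07), 3.02 in VE against N and 2.42 in VE+N against VE. The nitric oxide synthase gene Nos3, with 9.75 and 9.67 in VE+N, 9.63 and 9.50 in VE and 10.53 and 10.51 in N, fell by 0.81 in VE+N against N and by 0.95 in VE against N. Of the growth genes, Ccnd2 rose by 0.59 in VE+N against N and 0.47 in VE against N, and Ccnd1 rose by 0.44 and 1.08. Myc rose by 0.45 in VE against N but fell by 0.92 in VE+N against N and by 1.37 in VE+N against VE. All 5 genes passed in both comparisons with N, 3 rises and 2 falls for VE+N and 4 rises and 1 fall for VE, and 1 rose and 2 fell in VE+N against VE. Of all genes 10.2% rose and 8.91% fell in VE+N against N, 8.46% and 6.99% in VE against N and 4.29% and 5.84% in VE+N against VE. The rise of Ccnd1 in VE+N against N was lost without VE+N replicate 1 or either N array. With median centring the rises in VE against N numbered 2, because Ccnd2 and Myc no longer passed. They numbered 2 as well when any 1 of the N or VE arrays was left out, and in VE+N against VE 1 gene fell without VE replicate 2 or VE+N replicate 2.

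Within the BCL2 family that Bim acts on, 14 of 18 listed genes were measured beside Bcl2l11. Of these 2 rose and 3 fell in VE+N against N, and 1 rose and 3 fell in VE against N, with medians of 0.0076 and −0.08. Over all genes 19.1% and 15.4% were called there, with medians of −0.0044 and −0.02. The survival gene Bcl2 had log2 signals of 6.87 and 7.21 in VE+N, 7.24 and 7.54 in VE and 7.89 and 7.95 in N. It fell by 0.88 ± 0.148 in VE+N against N (adjusted p = 0.00427) and by 0.53 in VE against N (adjusted p = 0.0478). Bid, which links death receptors to mitochondria, fell by 0.60 and 0.64 in the same comparisons, and Bok, a Bax-like effector, by 0.88 and 0.52. Bmf, another Bcl2-binding death inducer, rose by 0.53 in VE+N against N, and Bcl2l1, which encodes the survival protein Bcl-xL, rose by 0.48 in VE against N. Leaving out any 1 of the N or VE arrays ended the calls of Bcl2, Bok and Bcl2l1 in VE against N, and leaving out either N array ended that of Bmf. The rises in VE+N against N numbered 0 without either N array and 1 without either VE+N array. In VE+N against VE limma called 0 of the 14, with 5 at an unadjusted p below 0.05, and the analysis of variance with Benjamini-Hochberg adjustment called 0. Median centring gave 2 rises there.

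Upstream of FoxO, 29 of 31 listed genes of insulin, PI3 kinase and Akt signalling were measured. Of these 6 rose and 9 fell in VE+N against N (median −0.08), in VE against N 7 rose and 4 fell (median 0.06), and in VE+N against VE 4 rose and 5 fell (median −0.0077). Of all genes 19.1%, 15.4% and 10.1% were called in these comparisons, with medians of −0.0044, −0.02 and 0.03. The last counts depended on single arrays: 1 rose without VE replicate 1, VE replicate 2 or VE+N replicate 2, and 3 fell without VE replicate 2 or either N array and 2 without VE replicate 1. Leaving out either N array is 1 fit here, the same as using only the arrays of the lines compared. The insulin-like growth factor ligands ran against each other. Igf1 had log2 signals of 11.07 and 11.08 in VE+N, 10.46 and 10.58 in VE and 9.44 and 9.62 in N, and rose by 1.54 ± 0.108 in VE+N against N and 0.98 in VE against N. Igf2 had 7.45 and 7.27 in VE+N, 7.92 and 7.74 in VE and 9.60 and 9.61 in N, and fell by 2.24 ± 0.113 and 1.78.

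Igf1r, the receptor for both ligands, and the substrate gene Irs1 showed the order of lines seen in Irs2 with larger steps. Igf1r had log2 signals of 4.50 and 4.49 in VE+N, 6.10 and 6.35 in VE and 5.39 and 5.31 in N, and fell by 1.73 ± 0.113 in VE+N against VE (adjusted p = 8.59e-05). Its VE+N signals lay below the brightest pluripotency marker on the same arrays (4.79 and 4.56), so they are not shown to be above background, and those of Irs1 lay only just above it. Irs1 had 4.80 and 4.72 in VE+N, 6.52 and 6.38 in VE and 5.30 and 5.33 in N, and fell by 1.69 ± 0.102 (adjusted p = 6.43e-05). Over the alternatives the Irs1 difference ranged from −1.76 to −1.10, so the size of its step depended on the processing. The VE line was the highest of the 3 in each of Irs2, Irs1 and Igf1r. Grb14, an adaptor that inhibits the insulin receptor, fell by 0.81 in VE+N against VE, a call lost without VE replicate 1. Sgk1, a kinase related to Akt that also phosphorylates FoxO proteins, fell by 1.56 ± 0.128 in VE against N and was higher in VE+N than in VE by 0.89. Pik3r3, a regulatory subunit of PI3 kinase, rose by 1.25 in VE+N against N, 0.67 in VE against N and 0.58 in VE+N against VE. Inpp5d, a phosphatase that removes the PI3 kinase product, rose by 1.00 in VE+N against N and 0.89 in VE against N. For Inpp5d VE+N differed from VE by 0.11 (adjusted p = 0.556).

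**Figure D4:**
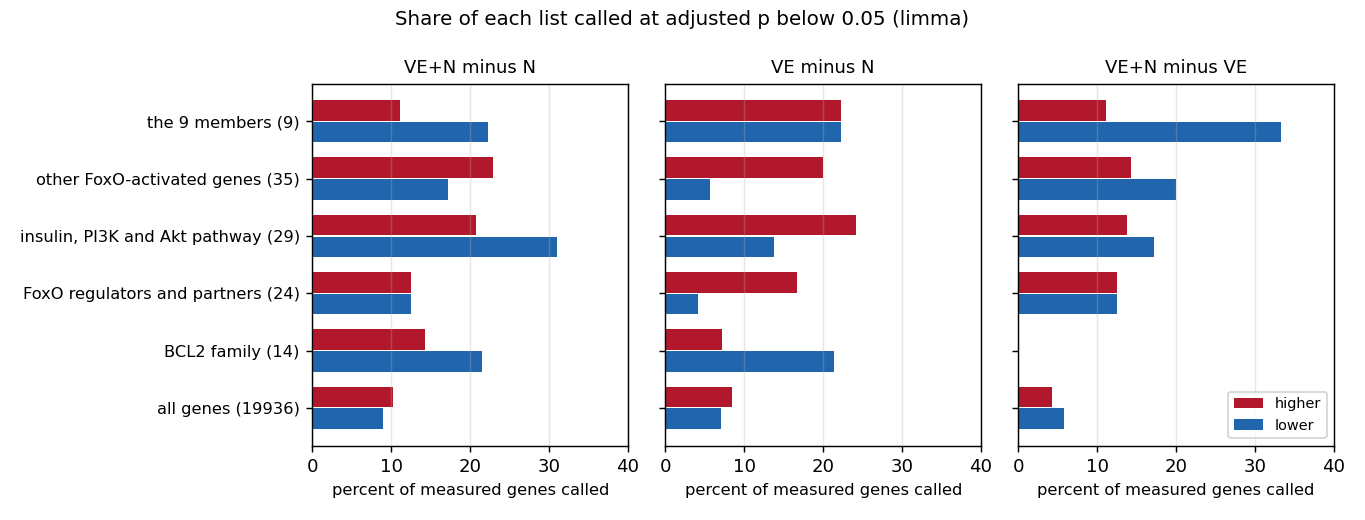
Percent of the measured genes of each list called higher (red) or lower (blue) at adjusted p 0.05, for VE+N minus N, VE minus N and VE+N minus VE, with the number of genes in brackets and all 19936 genes in the lowest row. Each of the 5 lists plotted above all genes held called genes in both directions in VE+N minus N and in VE minus N.

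Among 24 regulators and partners of FoxO factors, 3 rose and 3 fell in VE+N against N (median −0.11), 4 rose and 1 fell in VE against N (median −0.07), and 3 rose and 3 fell in VE+N against VE (median −0.03). Of all genes 19.1%, 15.4% and 10.1% were called there, with medians of −0.0044, −0.02 and 0.03. Sirt1, a deacetylase that acts on FoxO proteins, had log2 signals of 8.18 and 8.41 in VE+N, 7.55 and 7.63 in VE and 6.77 and 6.81 in N. It rose by 1.50 ± 0.112 in VE+N against N (adjusted p = 6.04e-05), by 0.79 in VE against N and by 0.71 in VE+N against VE. Mdm2, a ubiquitin ligase and p53 target, rose by 1.27, 0.48 and 0.79 in these comparisons, and the stress kinase gene Mapk14 by 0.95, 0.48 and 0.47. Sirt1, Mdm2 and Mapk14 thus stood in the same order of line means as Sesn1. So did other genes named above, among them Sesn2, Txnip, Igf1, Pik3r3 and Cldn5. Trib2, a pseudokinase that represses FoxO factors in human melanoma, fell by 0.99 in VE+N against N and by 0.89 in VE+N against VE. Cdk2, a cell cycle kinase that phosphorylates FoxO1, rose by 0.47 in VE against N, and Ezh2, a histone methyltransferase, fell by 0.61 in VE+N against VE. The rises of Mdm2 and Cdk2 in VE against N were lost with median centring and without VE replicate 2 or either N array, and those of Cdk2 and Mapk14 when any 1 of the N or VE arrays was left out. The rises in VE against N numbered 1 or 2 without any 1 of those arrays. The single fall in VE against N was 1 again in 6 of 18 alternatives and otherwise ranged from 0 to 3, with 0 when any 1 of those arrays was left out or after repeated quantile normalization and 3 with median centring, array weights or the trended prior. In VE+N against N 1 fell without N replicate 1. In VE+N against VE 1 rose without VE replicate 1, where the Sirt1 call was lost, and 1 fell without VE replicate 2, where that of Ezh2 was.

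The genes whose profile lay nearest to each of the 9 were found by Euclidean distance over the 6 arrays after centring each gene on its own mean. Nearest to Bcl2l11 was the myosin gene Myo1d, at a distance of 0.155, with log2 signals of 9.17 and 9.11 in VE+N, 9.02 and 8.97 in VE and 10.74 and 10.71 in N. Nearest to Sesn1 was Trp53inp1, a p53-induced stress gene, at 0.194, with 10.11 and 10.25 in VE+N, 9.10 and 9.23 in VE and 8.18 and 8.29 in N. Cited2 lay nearest to Serinc2 at 0.0475 and Insr to Atp6ap2 at 0.0445. Irs2 and Pik3ip1 shared the nearest gene Ube2s, at 0.102 and 0.0883. The second nearest genes were Tctn2 for Bcl2l11, Tle2 for Sesn1, Idh2 for Cited2, Erlec1 for Insr and Alyref for Irs2. For Pik3ip1 it was Morrbid, a long non-coding RNA that restrains Bcl2l11 in mouse myeloid cells. Morrbid had log2 signals of 7.05 and 6.94 in VE+N, 7.49 and 7.35 in VE and 7.33 and 7.20 in N, and it fell by 0.42 ± 0.108 in VE+N against VE (adjusted p = 0.046). It did not pass in VE+N against N (−0.27, adjusted p = 0.137) or VE against N (0.16, adjusted p = 0.432). A link between Morrbid and Bcl2l11 in these lines was not tested. For the factors the nearest genes were Igbp1b for Foxo1, Naif1 for Foxo3 and Olfr810 for Foxo4, at 0.0517, 0.0456 and 0.0637. Igbp1b (log2 signal at most 3.09) and Olfr810 (at most 2.93) lay below the brightest pluripotency marker on every array, and Naif1 lay above it. Igbp1b and Olfr810 are thus not shown to be above background. Every gene has a nearest gene, and genes that vary little lie close together by this distance. No shared profile is therefore inferred from Igbp1b, Olfr810, Naif1 or the other nearest genes.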

How the data were processed

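The deposited values are log2 signals per probe set. Per the submitters' processing notes, the authors used RMA in Partek 6.3, that is background correction, quantile normalization and a summary of probes. No source names the log base, which was taken from the span of values. Genome build and probe positions are not given in the sources used here. Arrays were grouped by the line in their titles, and all 6 were used. Of 35556 probe sets, 21789 carried 1 symbol, brought up to date through Entrez identifiers or accessions (GRCm38.p6 table); the brightest probe set of a gene was kept, giving 19936 genes, with no minimum signal. The number of arrays limits the precision.

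Lines were compared with limma 3.58.1 in R 4.3.3, as line means over all 6 arrays (3 residual and 4.89 prior degrees of freedom), two-sided, with Benjamini-Hochberg adjustment over all genes in each of 3 comparisons; called means adjusted p below 0.05. Values after ± are SEs. The sample titles call the 2 arrays of a line biological replicates. No source says that the 2 extracts of a line came from separate cultures, so p-values measure the spread between extracts. The script was tested on simulated data. The 9 genes and all lists were chosen with earlier results of these data known. Named genes are the 9, up to 4 called genes of a list with the largest difference in each comparison (6 for FoxO-activated genes), all FoxO-repressed genes, and the 2 genes nearest to each of the 9, without predicted genes and small RNAs. The motif search was chosen after the values were seen. Of the listed genes, 9 were not analysed here. The replicate numbers did not pair the arrays.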

Additional observations from a re-analysis of the deposited data

How the results depend on the processing

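Over 480 recomputed differences of the 9 genes, 418 kept their direction and side of the threshold, 49 lost a call, 1 gained one and 12 changed sign, none of these past the threshold. The sign changes were Foxo1 in VE+N against VE (0.0056 with median centring), Cited2 in VE+N against N (−0.012 with repeated quantile normalization), Insr in VE+N against VE (−0.052 with repeated quantile normalization, −0.0066 with the mean of probe sets), and single arrays left out, which gave −0.16 to 0.074 for Foxo3 in VE against N, −0.11 to 0.062 for Foxo4 in VE+N against N, −0.0036 to 0.049 for Cited2 in VE+N against N and −0.20 to 0.22 for Insr in VE+N against VE. Among the 9, the analysis of variance with Benjamini-Hochberg adjustment called 2 in VE against N and 0 in VE+N against VE, the series' rule of unadjusted p 0.05 and 2-fold 1 and 0, and VE+N against VE gave 2 with only the 4 arrays compared and 1 with all probe sets tested. Leaving out single arrays gave 2 to 4, 2 to 3 and 1 to 4 members in VE against N, VE+N against N and VE+N against VE. Over all genes, 3079, 3802 and 2020 were called in these comparisons. The analysis of variance gave 1276, 1867 and 311 with adjustment and 751, 909 and 493 by the series' rule, all probe sets tested gave 1117 in VE+N against VE, and single arrays left out gave 1688 to 3356, 2243 to 3800 and 966 to 2049. A line left with 1 array was assumed to vary like the others. Leaving out either array of the line not compared gave the same fit as using only the 4 arrays compared. The tallies of alternatives and the 480 differences therefore hold that fit more than once. The causes of these changes were not tested. Deviations of same-numbered arrays correlated at −0.0050, 0.12 and 0.069, so the numbers did not pair; with a replicate block 3056, 3864 and 2055 genes and 4, 3 and 4 of the 9 were called. Median centring changed the share of higher calls from 54.8% to 34.9% in VE against N and from 42.3% to 60.8% in VE+N against VE. The other lists were recomputed in the same way after their values were seen, and no gene named from them changed sign.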
